A study of Mus musculus with 9 samples.

Results

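The protocadherins were all rows of the gene count table whose symbol begins with Pcdh, 71 of 24421 rows. They comprised 15 members of the alpha cluster, 22 of the beta cluster, 22 of the gamma cluster and 12 non-clustered genes. The 9 RNA-sequencing libraries came from C57BL/6 mouse brain and formed 3 groups of 3. Control and BAL101553 libraries were made from SB28 glioma cells, a mouse glioblastoma line that carries GFP and luciferase. The cells grew in the brain of control mice or of mice given BAL101553 (lisavanbulin), a microtubule-targeting prodrug. The study describes its control mice as given vehicle and also calls them nontreated. According to the study's methods, tumor cells were sorted as CD45-, CD11b- and GFP+, although the labels call both groups whole tissue. Those methods describe fewer samples per group than the deposited series holds, and that they cover all of these libraries is not stated. Treated tumors were harvested later than controls, at matched tumor volume, so treatment and time of growth cannot be told apart. The libraries labelled astrocytes also carry the BAL101553 treatment label, and how these cells were obtained is not given in the sources used here. Nothing states that the 3 libraries of a group are separate mice, so p-values measure only the spread between these samples.

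Protocadherins are the largest group within the cadherin superfamily of calcium-dependent adhesion molecules. In the alpha and gamma clusters, each variable exon carries its own promoter and encodes the extracellular domains, and it is spliced to constant exons that encode a shared cytoplasmic tail. Beta genes are single-exon genes without that tail. Neurons choose among the clustered isoforms through CTCF, cohesin and DNA methylation and use them to recognize self from non-self, whereas C-type isoforms are expressed more uniformly. The non-clustered delta protocadherins signal through the WAVE actin regulator complex, phosphatases or Dab adaptors, and they act in axon growth and cell sorting.

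RefSeq promoters (GRCm38.p6, 250 bases before to 50 after the start) were given for 9 of the non-clustered members. The 3 shown belong to genes on which the results below turn: Pcdh19, abundant in tumor cells, Pcdh10, abundant in the astrocyte-labelled libraries, and Pcdh17, which rose under BAL101553. Capitals mark CG dinucleotides, the motif searched (it reads the same on both strands). Sequences run 5′ to 3′ on the gene's strand.
Pcdh19, chrX:133688944-133689243, minus strand: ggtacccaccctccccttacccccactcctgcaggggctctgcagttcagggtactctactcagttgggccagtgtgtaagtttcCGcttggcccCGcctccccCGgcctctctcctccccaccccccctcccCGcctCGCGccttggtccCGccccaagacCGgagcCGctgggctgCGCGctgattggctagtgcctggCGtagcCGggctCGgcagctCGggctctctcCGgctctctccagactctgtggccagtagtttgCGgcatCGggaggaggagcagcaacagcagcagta
Pcdh10, chr3:45378148-45378447, plus strand: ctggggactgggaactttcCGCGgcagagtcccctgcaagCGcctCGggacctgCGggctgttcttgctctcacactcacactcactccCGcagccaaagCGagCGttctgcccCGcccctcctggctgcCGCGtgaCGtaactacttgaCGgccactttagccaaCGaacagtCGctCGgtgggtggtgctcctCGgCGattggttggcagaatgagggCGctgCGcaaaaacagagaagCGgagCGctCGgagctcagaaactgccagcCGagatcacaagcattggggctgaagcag
Pcdh17, chr14:84443313-84443612, plus strand: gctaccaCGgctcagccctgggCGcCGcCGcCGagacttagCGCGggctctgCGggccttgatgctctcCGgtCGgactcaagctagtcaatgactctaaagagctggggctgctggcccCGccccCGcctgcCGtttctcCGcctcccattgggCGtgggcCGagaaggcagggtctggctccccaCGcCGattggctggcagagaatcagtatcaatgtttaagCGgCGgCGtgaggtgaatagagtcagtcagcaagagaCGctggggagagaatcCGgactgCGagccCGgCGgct
The Pcdh19 window held 18 CG dinucleotides, a number reached by 29.7% of the 32851 promoters of this length. The Pcdh10 window held 24, reached by 20.0%. The Pcdh17 window held 26, reached by 16.9% of promoters and the highest of the 9 members. Pcdh20, without a count in 5 of 6 tumor libraries, had the fewest, 4, and the median over all promoters was 7. Pcdh10, with its 24, also had only 6 counts over the BAL101553 group, and Pcdh7, abundant in tumor cells, had 11. A relation between CG number and expression was not tested.

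The libraries held 22919523 to 34013875 counts. The astrocyte-labelled libraries carried astrocyte transcripts (Slc1a2 at 4753 to 5965 CPM, counts scaled to a common library size) together with those of other brain cells. The 9 astrocyte genes summed to 12750 to 15560 CPM there and 684 to 974 in tumor libraries, where Gja1 alone gave 650 to 928. The 6 oligodendrocyte genes summed to 10280 to 12720 against 15.3 to 20.6, the 8 microglial genes to 427 to 922 against 2.09 to 4.53. The 6 precursor genes summed to 988 to 1254 against 228 to 608, but Pdgfra went the other way (7.06 to 9.04 CPM against 127 to 335), Cspg4 stood at 56.5 to 68.6 against 61.8 to 303, and Olig1, Olig2 and Sox10 carried the higher sum. The 6 endothelial genes summed to 202 to 251 CPM there and to 544 to 878 in tumor libraries, most of it Cdh5. The 9 neuronal genes summed to 28.4 to 33.3 CPM there and to 48.1 to 68.8 in BAL101553 and 45.3 to 89.3 in control libraries. Stmn2, Nefl and Eno2 gave most of the tumor sums. Snap25 went the other way, at 4.76 to 5.055 CPM in astrocyte-labelled and 0.0449 to 0.342 in tumor libraries. So did Slc17a7 (0.830 to 1.17 against 0 to 0.0789) and Rbfox3 (0.897 to 1.21 against 0 in all 6 tumor libraries). In such bulk samples fewer cells of a type and less RNA per cell cannot be told apart.

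Tumor cells and astrocyte-labelled libraries used different non-clustered protocadherins. All 12 were tested in astrocyte-labelled against BAL101553 libraries, 9 were higher and 3 lower, and none overlapped between the groups. Of all genes, 47.6% were higher and 40.2% lower without overlap. Over all 56 protocadherins tested, 38 (67.9%) were higher and 10 (17.9%) lower. Of the 15314 genes tested, 85.1% passed in either direction, 46.3% higher and 38.9% lower, so a passed test alone says little here. At an unadjusted p under 0.05 there were 48 protocadherins, where 85.8% of all genes had one. Of the 56, 15 passed the filter on low counts only through the astrocyte-labelled libraries (5 of them non-clustered), and all 15 were higher there, a direction that the filter largely fixed. The median log2 fold change was 1.34 over the protocadherins and 0.18 over all genes. Both the 38 higher members and the protocadherin median include these 15, so neither is free of the filter.

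**Figure D1:**
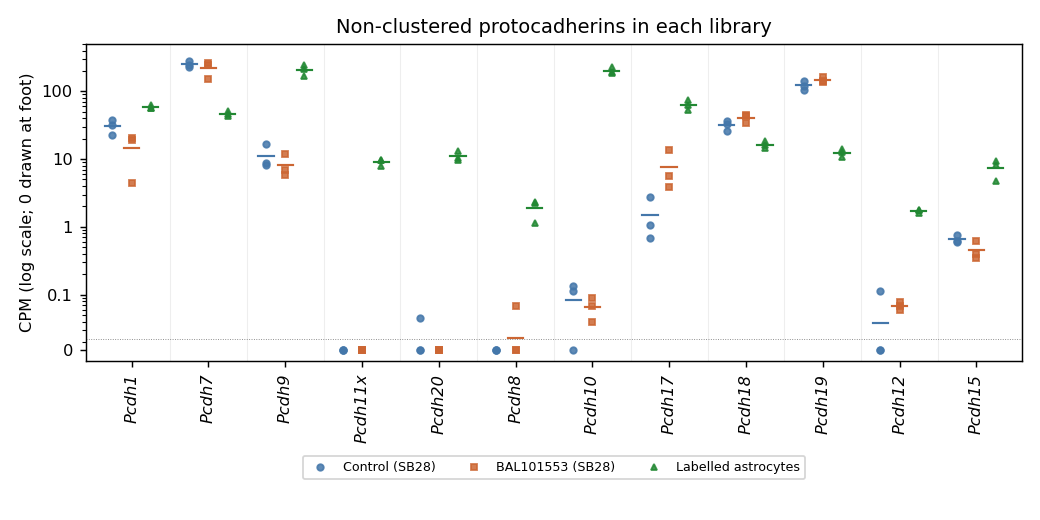
Level of each non-clustered protocadherin in CPM on a log axis, 1 point per library and a bar at the group mean; a library at 0 is drawn at the foot. Pcdh7, Pcdh18 and Pcdh19 are lower in the 3 astrocyte-labelled libraries than in every tumor library, and the other 9 members are higher.

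Pcdh7 and Pcdh19 led the tumor cells. Pcdh7, a delta-1 protocadherin that binds the phosphatase inhibitor SET, was measured at 284, 242 and 226 CPM in control 1 to 3, at 264, 154 and 249 in BAL101553 1 to 3, and at 50.9, 45.8 and 43.3 in astrocyte-labelled libraries 1 to 3. BAL101553 2 was the lowest tumor library, and all tumor libraries stood above the astrocyte-labelled ones. The log2 fold change of the astrocyte-labelled against the BAL101553 libraries was -2.24 ± 0.21 (SE, n = 3 per group, edgeR adjusted p = 1.78e-05). Pcdh19, an X-linked delta-2 member whose loss causes an epilepsy, stood at 104, 143 and 121 CPM in control, 144, 165 and 136 in BAL101553 and 14.1, 12.6 and 10.7 in astrocyte-labelled libraries. Its log2 fold change was -3.55 ± 0.13 (edgeR adjusted p = 1.11e-07). Pcdh18, another delta-2 member, was measured at 25.8, 36.2 and 33.3 CPM in control, 42.8, 33.7 and 45.1 in BAL101553 and 15.9, 18.4 and 14.6 in astrocyte-labelled libraries. It was lower by a log2 fold change of -1.30 ± 0.15 (edgeR adjusted p = 7.14e-05). Per kb of exon not shared with another gene, the BAL101553 means were 21.0 CPM for Pcdh7, 14.1 for Pcdh19 and 7.55 for Pcdh18.

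Pcdh10 and Pcdh9 took that place in the astrocyte-labelled libraries. Pcdh10, which recruits the WAVE complex, was measured at 226, 194 and 185 CPM there and at no more than 0.135 CPM in any tumor library, with 6 counts in all over the BAL101553 group. The log2 fold change was 11.46 ± 0.20 (edgeR adjusted p = 7.42e-09). Pcdh10, like Pcdh8, Pcdh11x, Pcdh12 and Pcdh20, passed the filter on low counts only through the astrocyte-labelled libraries, which largely fixed its direction. Pcdh9, a delta-1 member, was at 213, 245 and 170 CPM in the astrocyte-labelled libraries, at 6.94, 5.80 and 11.7 in BAL101553 and at 8.30, 16.8 and 8.67 in control. Its difference was 4.68 ± 0.29 on the log2 scale (edgeR adjusted p = 1.65e-06). Per kb of exon not shared, the astrocyte-labelled means were 30.8 CPM for Pcdh9 and 12.7 for Pcdh10. Pcdh11x, an X-linked delta-1 member, had no count in the 6 tumor libraries against 9.77, 9.83 and 7.78 CPM, which made it at least 271-fold higher than BAL101553, taking 3 counts over the group as the limit. Pcdh20, likewise without a count in BAL101553 and with a value above 0 in control 1 only (0.0449 CPM), stood at 13.3, 9.83 and 10.5 CPM, at least 334-fold higher. Pcdh8, an activity-regulated member, had 168 counts against 2, a ratio of 84.6 with a 95% counting interval of 23.1 to 704. Pcdh1, Pcdh12, Pcdh15 and Pcdh17 were also higher, by log2 fold changes of up to 4.59. The oligodendrocyte and microglial transcripts given above were higher in the same libraries, and their part in the protocadherin levels was not tested.

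BAL101553 against control was a smaller contrast. Of 71 protocadherins, 41 had enough counts to be tested, 5 were higher (12.2%) and 2 lower (4.88%), where 8.64% of the 12633 genes tested were higher and 6.09% lower, 14.7% in all. At an unadjusted p under 0.05 there were 15, where 34.1% of all genes had one. The 3 libraries of each group did not overlap for 11 members that were higher and 4 that were lower, against 20.1% and 19.6% of all genes. The median log2 fold change was 0.36 for the protocadherins and 0.02 for all genes. The shares called lie near the background. The share without overlap was 26.8% for higher members, above that of all genes, and for lower members it was below that of all genes. No test was made of these shares. The number called fell to 1 without BAL101553 3 or control 1 and to 0 without control 3, when 10 still had an unadjusted p under 0.05. Some marker sums also differed between the tumor groups without overlap. The precursor genes summed to 233, 439 and 228 CPM in control and 608, 579 and 468 in BAL101553 (Pdgfra at 127 to 201 and 304 to 335). Most of the rest was Cspg4 (61.8 to 237 and 133 to 303), and Olig1 went the other way (0.227 to 0.359 and 0.118 to 0.171). The astrocyte genes summed to 941 to 974 and 684 to 799, most of it Gja1 (888 to 928 and 650 to 746). The endothelial genes summed to 748 to 878 and 544 to 664, most of it Cdh5 (703 to 823 and 489.5 to 571). Slc1a3 of the astrocyte list went the other way (0.583 to 0.716 and 1.30 to 2.96 CPM). Cldn5 of the endothelial list overlapped (0.295 to 1.48 and 0.750 to 0.889 CPM). These sums thus followed a few genes of each list, and the part of any cell type in the protocadherin changes was not tested. The comparison of astrocyte-labelled libraries shares the BAL101553 libraries with this one, so the folds are given side by side without relating them.

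**Figure D2:**
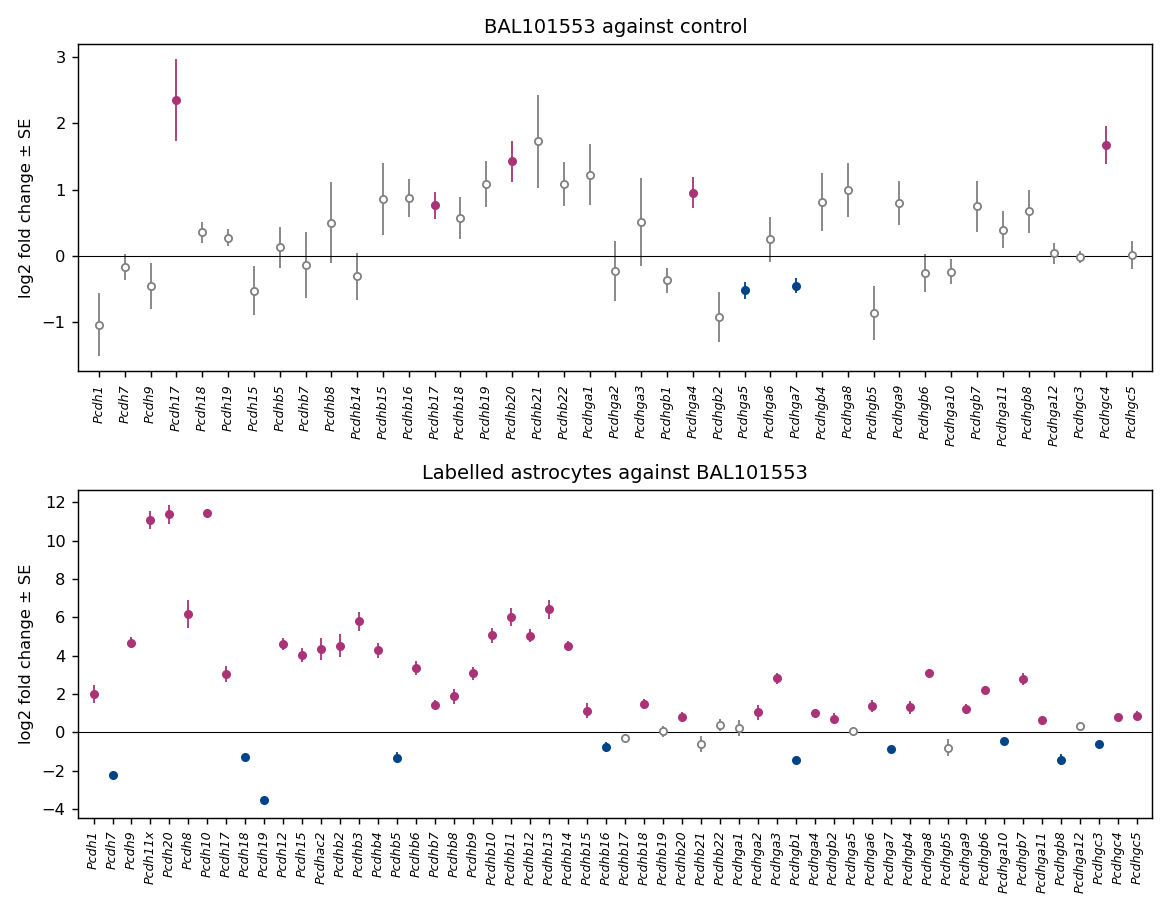
Log2 fold change ± standard error of each tested protocadherin, BAL101553 against control above and astrocyte-labelled against BAL101553 below; filled points passed an edgeR adjusted p of 0.05, pink higher and blue lower. Above, 7 of 41 members are filled; below, 48 of 56 are, on a wider axis.

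Pcdh17 rose most among the members called. This delta-2 protocadherin, which recruits the WAVE complex in growing axons, was measured at 0.673, 2.77 and 1.05 CPM in control, 3.83, 5.56 and 13.6 in BAL101553 and 74.6, 62.6 and 53.2 in astrocyte-labelled libraries. The control and BAL101553 libraries did not overlap, and BAL101553 3 stood well above the other BAL101553 libraries. The log2 fold change was 2.35 ± 0.62 (edgeR adjusted p = 0.0428). Left out singly, BAL101553 3, control 1 and control 3 each ended the call, with log2 fold changes of 1.64 to 3.14 over the 6 libraries and an adjusted p of up to 0.146. Its mean was 2.36% of the astrocyte-labelled mean in control and 12.1% in BAL101553, while the astrocyte gene Slc1a2 stood at 0.0242% and 0.0275%, the oligodendrocyte gene Mbp at 0.0420% and 0.0321%, the microglial gene C1qa at 0.510% and 0.427% and the endothelial gene Cldn5 at 1.60% and 1.32%. Other genes of these marker lists were not as low in tumor libraries. Gja1 stood at 650 to 928 CPM in tumor and 1352 to 1605 in astrocyte-labelled libraries. Aldh1l1 stood at 20.28 to 44.37 and 222.9 to 254.5, and Cdh5 at 489.5 to 823.4 and 16.77 to 22.8. Flt1 and Ly6c1 overlapped. The part of astrocytes, oligodendrocytes, microglia or endothelium in the Pcdh17 level was not tested. Among the other non-clustered members none was called. Pcdh1, chosen after its values were seen, stood at 22.3, 31.5 and 37.3 CPM in control and 19.0, 4.50 and 20.7 in BAL101553, the groups not overlapping (log2 fold change -1.04 ± 0.48, edgeR adjusted p = 0.169). Pcdh7, Pcdh9, Pcdh18 and Pcdh19 had log2 fold changes of -0.17, -0.46, 0.36 and 0.28.

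Few counts were assigned to alpha isoforms in tumor cells. The alpha genes summed to 0 to 0.0758 CPM in control, 0.0884 to 0.118 in BAL101553 and 1.76 to 2.34 in astrocyte-labelled libraries. Of 15 members, 4 (Pcdha4, Pcdha6, Pcdha7 and Pcdha7-g) had no count in any library and 7 had counts only in the astrocyte-labelled libraries. Alpha genes share constant exons and, in the 13 members matched to the annotation, 36.1% to 65.3% of the 50-base windows of a member's exons were unique to it. How reads in the shared part were assigned is not given in the sources used here, and an effect of this on the alpha counts was not tested. No alpha gene could be tested between BAL101553 and control. Pcdhac2, a C-type isoform and the only alpha gene tested against astrocyte-labelled libraries, stood at 0.555, 0.586 and 0.491 CPM there, 48 counts against 2, a ratio of 24.2 with a counting interval of 6.34 to 205. Pcdhac1, the other C-type, had 8 counts against 0, at least 2.68-fold. Pcdha9 and Pcdha12 had 36 and 33 counts against 1 each, ratios of 36.3 (6.10 to 1471) and 33.2 (5.56 to 1352), while Pcdha5, with 5 counts in BAL101553 and 1 in control, had a ratio of 4.09 (0.458 to 194).

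Beta genes span 37264938 to 37524479 on the plus strand of chromosome 18 (GRCm38). Their use was less even in tumor cells than in the astrocyte-labelled libraries, which also carried oligodendrocyte and microglial transcripts. The part of this mix of cells in the evenness was not tested. The cluster summed to 19.7, 32.5 and 24.6 CPM in control, 47.2, 35.6 and 37.8 in BAL101553 and 86.7, 75.9 and 70.9 in astrocyte-labelled libraries, with no overlap between groups. The effective number of isoforms (the inverse Simpson index, which is the number of equally used isoforms giving the same evenness) was 6.92 ± 0.49 in control, 6.88 ± 0.20 in BAL101553 and 14.3 ± 0.33 in astrocyte-labelled libraries (SD, n = 3), out of 22. The control and BAL101553 means of the effective number differed by less than their SD. The sums and effective numbers carry no test.

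**Figure D3:**
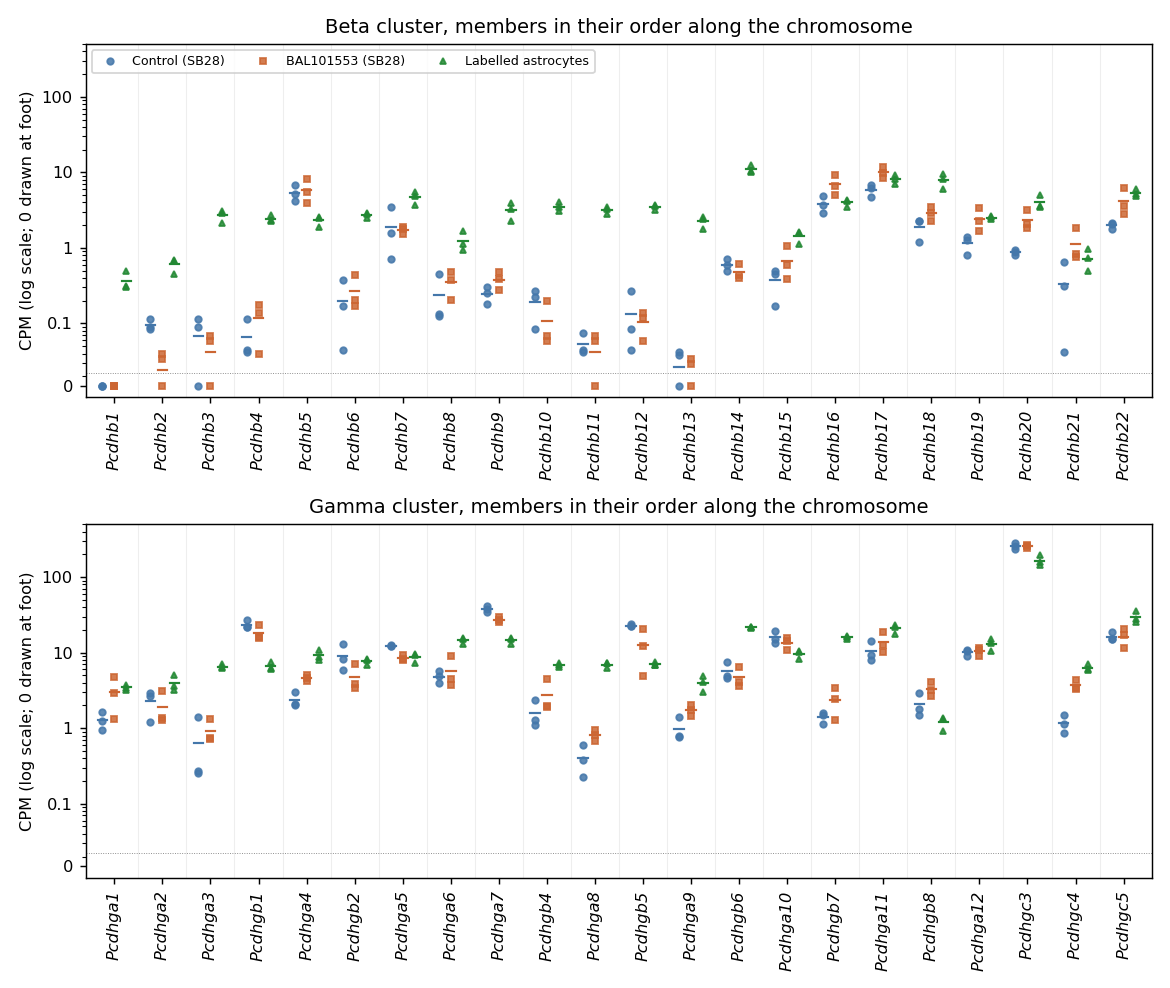
CPM of every beta and gamma member in its order along the chromosome, log axis, 1 point per library, bars at group means and libraries at 0 drawn at the foot. Most members between Pcdhb1 and Pcdhb14 are near 0 in tumor libraries and at 0.308 CPM or more in the astrocyte-labelled ones, while Pcdhb15 to Pcdhb22 are used in all 3 groups.

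Among Pcdhb1 to Pcdhb14, 13 members were tested against astrocyte-labelled libraries, 12 were higher there and 1 lower, beside 46.3% and 38.9% of all genes. Of the 13 members, 9 passed the filter only through the astrocyte-labelled libraries, so their direction was largely fixed by it. The other 4 were Pcdhb7, Pcdhb8 and Pcdhb14, which were higher, and Pcdhb5. Pcdhb14 stood at 0.494, 0.720 and 0.589 CPM in control, 0.616, 0.395 and 0.442 in BAL101553 and 12.6, 10.4 and 10.1 in astrocyte-labelled libraries (log2 fold change 4.52 ± 0.24, edgeR adjusted p = 7.14e-07). Pcdhb13, Pcdhb11 and Pcdhb3 had the largest rises, with 198, 280 and 239 counts in the astrocyte-labelled libraries and 2, 4 and 4 in BAL101553. The ratio for Pcdhb13 was 99.7 (95% counting interval 27.2 to 829). Pcdhb5 was the exception, at 4.17, 6.90 and 5.14 CPM in control, 3.90, 8.29 and 5.48 in BAL101553 and 2.47, 2.59 and 1.89 in astrocyte-labelled libraries (log2 fold change -1.32 ± 0.30, edgeR adjusted p = 0.00353). Pcdhb1 had 32 counts against 0, at least 10.7-fold.

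Pcdhb15 to Pcdhb22, a stretch of 8 neighbours at the 3′ end that was grouped after its values were seen, summed to 13.4, 19.3 and 16.4 CPM in control, 39.4, 23.3 and 29.1 in BAL101553 and 39.3, 34.0 and 29.0 in astrocyte-labelled libraries. The tumor groups did not overlap, and BAL101553 1 was the highest tumor library. They held 59.4% to 68.0% of beta counts in control, 65.6% to 83.5% in BAL101553 and 40.9% to 45.3% in astrocyte-labelled libraries. For BAL101553 against control their log2 fold changes were 0.58 to 1.73, a description of members picked for these values. Of the 8, 2 were called higher, beside 8.64% of all genes. Only 4 of the 14 members from Pcdhb1 to Pcdhb14 were tested. Their range was -0.31 to 0.50 and none passed, with 0 called at an unadjusted p under 0.05 as well. As the split was made on these values, the smaller changes in Pcdhb1 to Pcdhb14 are no independent contrast.

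The beta members called were Pcdhb17 and Pcdhb20. Pcdhb17 was measured at 4.76, 6.71 and 6.27 CPM in control, 11.6, 8.37 and 9.96 in BAL101553 and 9.25, 8.07 and 7.02 in astrocyte-labelled libraries. BAL101553 rose above every control library by a log2 fold change of 0.76 ± 0.20 (edgeR adjusted p = 0.0411). Pcdhb20 was measured at 0.808, 0.947 and 0.884 CPM in control, 3.18, 1.85 and 2.06 in BAL101553 and 5.09, 3.59 and 3.51 in astrocyte-labelled libraries, a log2 fold change of 1.43 ± 0.31 (edgeR adjusted p = 0.0246). Each call ended without BAL101553 1, BAL101553 3, control 1, control 2 or control 3, with log2 fold changes of 0.62 to 0.87 for Pcdhb17 (adjusted p of up to 0.118) and 1.16 to 1.57 for Pcdhb20 (up to 0.0962). Pcdhb16, Pcdhb19, Pcdhb21 and Pcdhb22 also had groups that did not overlap, with edgeR adjusted p from 0.0604 to 0.127. They were not called, and 20.1% of all genes tested were higher without overlap. In the astrocyte-labelled libraries Pcdhb20 was higher than in BAL101553 by 0.79 ± 0.28 (edgeR adjusted p = 0.0294), a call that ended without astrocyte-labelled 1, BAL101553 2 or BAL101553 3 (0.60 to 1.05, adjusted p of up to 0.131). Beta genes share sequence: 88.0% to 100% of the 50-base windows of a member's exons, the read length, were unique to it.

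Gamma genes, from 37661793 to 37841873 on the same strand, summed to 413, 463 and 448 CPM in control, 411, 396 and 440 in BAL101553 and 433, 378 and 342 in astrocyte-labelled libraries, groups that overlapped. Pcdhgc3, a C-type isoform, dominated. It was measured at 236, 282 and 258 CPM in control, 255, 242 and 266 in BAL101553 and 194, 157 and 146 in astrocyte-labelled libraries, or 57.0% to 62.2% of gamma counts in tumor libraries and 41.4% to 44.9% in the others. BAL101553 and control differed by a log2 fold change of -0.02 ± 0.09 (edgeR adjusted p = 0.909), and astrocyte-labelled against BAL101553 by -0.61 ± 0.12 (edgeR adjusted p = 0.00164). Gamma genes share constant exons, only 34.7% to 73.1% of a member's 50-base windows were unique, and how reads in the shared part were assigned is not given in the sources used here. The gamma effective number of isoforms was 2.78 ± 0.17 in control, 2.57 ± 0.07 in BAL101553 and 4.84 ± 0.32 in astrocyte-labelled libraries.

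**Figure D4:**
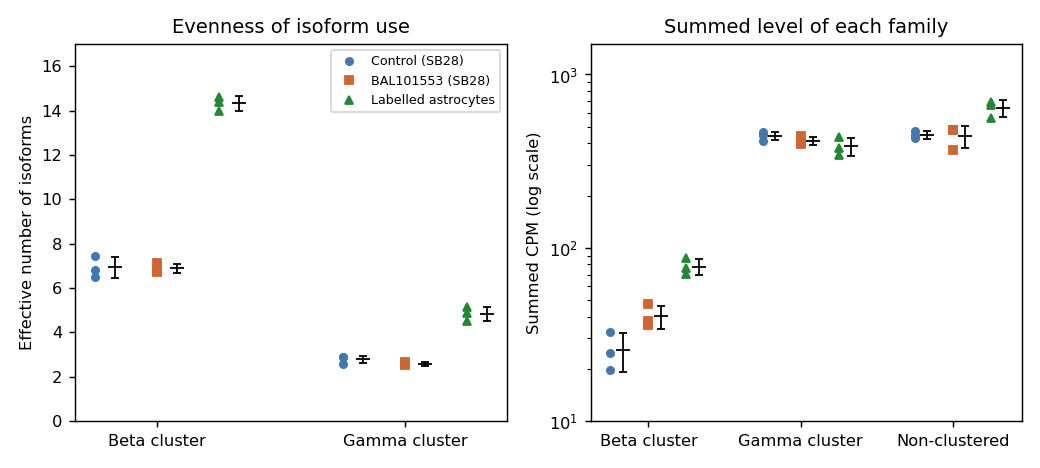
Left, effective number of isoforms in the beta and gamma clusters; right, summed CPM of 3 families on a log axis; 1 point per library, with the mean and SD of 3 libraries in black. The beta cluster has 6.50 to 7.46 effective isoforms in tumor libraries and 14.0 to 14.6 in astrocyte-labelled ones, and its sum differs between all 3 groups without overlap.

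All 22 gamma genes were tested. Between BAL101553 and control, Pcdhgc4 and Pcdhga4 rose and Pcdhga5 and Pcdhga7 fell. Thus 9.09% of gamma genes were higher and 9.09% lower, near the 8.64% and 6.09% of all genes. Pcdhgc4, a C-type isoform needed for the survival of interneurons, was measured at 0.853, 1.48 and 1.14 CPM in control, 3.39, 3.31 and 4.39 in BAL101553 and 6.97, 5.83 and 6.04 in astrocyte-labelled libraries. The 3 groups did not overlap. Its log2 fold change of 1.68 ± 0.29 had the smallest adjusted p of the protocadherins in this comparison (edgeR adjusted p = 0.0140) and kept the call in 5 of 6 leave-outs, losing it without control 3 (adjusted p = 0.0667). Pcdhgc5 stood at 15.1, 18.5 and 15.1 CPM in control and 11.5 to 20.4 in BAL101553, groups that overlapped (log2 fold change 0.01 ± 0.21), against 35.5, 27.7 and 25.4 in astrocyte-labelled libraries (log2 fold change 0.87 ± 0.23, edgeR adjusted p = 0.00695).

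Pcdhga4 was measured at 2.11, 2.99 and 2.02 CPM in control and 4.55, 4.18 and 5.01 in BAL101553, groups that did not overlap (log2 fold change 0.95 ± 0.23, edgeR adjusted p = 0.0354). Only 34.7% of its 50-base windows were unique to it, the lowest share among the gamma genes. Pcdhga5 stood at 12.3, 12.1 and 12.6 CPM in control and 9.23, 8.33 and 8.10 in BAL101553, and fell by 0.52 on the log2 scale (SE 0.13, edgeR adjusted p = 0.0390). Pcdhga7 stood at 37.8, 34.0 and 40.8 CPM in control and 26.6, 30.0 and 25.7 in BAL101553, and fell by 0.45 (SE 0.12, edgeR adjusted p = 0.0418). Neither fall passed with library sizes taken as total counts. The calls of Pcdhga4 and Pcdhga7 each ended without BAL101553 1, BAL101553 3, control 1 or control 3 (adjusted p of up to 0.134 and 0.153). That of Pcdhga5 ended whichever of the 6 libraries was left out (up to 0.133). Pcdhgb5, likewise chosen after its values were seen, stood at 22.6, 23.7 and 22.2 CPM in control and 20.3, 4.89 and 12.3 in BAL101553 (log2 fold change -0.86 ± 0.41, edgeR adjusted p = 0.182).

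Against astrocyte-labelled libraries 13 gamma genes (59.1%) were higher and 5 (22.7%) lower there, beside 46.3% and 38.9% of all genes. Pcdhgb8 fell by 1.44 (SE 0.28, edgeR adjusted p = 0.00138), from 2.67, 3.16 and 4.09 CPM in BAL101553 to 1.33, 1.38 and 0.906. Pcdhgb1 fell by 1.43 (SE 0.19, edgeR adjusted p = 0.000163), from 16.0, 23.1 and 15.4 CPM to 7.61, 6.24 and 6.04. Pcdhga7 fell by 0.90 (SE 0.12, edgeR adjusted p = 0.000148), to 15.4, 15.3 and 13.0 CPM. The A-type members had a median log2 fold change of 0.82, with 7 of 12 higher and 2 lower, and the B-type members 0.71, with 4 of 7 higher and 2 lower.

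Genes that act on the clusters or bind their products were read from lists of 21 each. Of the locus regulators (CTCF, cohesin and its loaders, and enzymes of DNA and histone methylation), 5 were higher in BAL101553 and none lower, with 6 and 0 at an unadjusted p under 0.05 and a median log2 fold change of 0.12. Of all genes, 8.64% were higher, 6.09% lower and 34.1% at an unadjusted p under 0.05. The cohesin loader Nipbl stood at 125, 129 and 117 CPM in control and 166, 160 and 159 in BAL101553 (log2 fold change 0.39 ± 0.08, edgeR adjusted p = 0.0220). Dnmt3b, the DNA methyltransferase that acts on clustered protocadherin promoters, stood at 0.987, 0.834 and 0.674 CPM in control and 1.57, 1.74 and 1.74 in BAL101553 (1.02 ± 0.28, edgeR adjusted p = 0.0478). Setdb1, which silences the clusters, Dnmt3a and the cohesin regulator Pds5b were the others, and Ctcf differed by 0.06 ± 0.10. In astrocyte-labelled libraries 3 regulators were higher and 15 lower than in BAL101553, with a median of -0.97, where 85.1% of all genes passed in either direction. The regulators Rest and Dnmt1 were among the lower ones (-2.13 ± 0.11 and -2.49 ± 0.08).

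Of the partners (kinases bound by the cytoplasmic tails, WAVE complex subunits and proteases that cleave protocadherins), none was higher in BAL101553 and 2 were lower, with 1 and 6 at an unadjusted p under 0.05, and the median was -0.12, beside the same shares of all genes. Those lower were the WAVE complex subunits Cyfip1 (-0.36 ± 0.09, edgeR adjusted p = 0.0330) and Brk1 (-0.35 ± 0.09, edgeR adjusted p = 0.0390). In astrocyte-labelled libraries 7 partners were higher and 9 lower than in BAL101553, beside 46.3% and 38.9% of all genes. Ptk2b, a focal adhesion kinase family member, had a log2 fold change of -4.07 ± 0.18 and Cyfip2 one of 6.49 ± 0.51.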

How the data were processed

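RNA was extracted with QIAGEN columns and made into Illumina libraries, and per the submitters' processing notes the authors used TopHat and HTSeq 0.6.1 with the mm10 build. The deposited table holds raw read counts per gene (24421 rows, 9 libraries), without normalization. The study's methods name a stranded kit and 50-base reads.

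Counts were scaled by TMM, genes were kept by filterByExpr within each comparison, and each comparison was fitted with edgeR's quasi-likelihood test (edgeR 4.0.16, R 4.3.3) over all genes, with Benjamini-Hochberg adjustment and a threshold of 0.05. DESeq2 1.42.0 was an alternative. CPM were scaled by TMM over all 9 libraries. Exon lengths and positions came from GENCODE vM21 (69 of 71 members matched). Intervals of count ratios are exact, at 95%, and cover counting error only. Scripts were tested on simulated data. Replicates differed beyond sampling noise. The members named were those called under BAL101553, the 2 highest in each family and group, the 3 largest changes each way and the C-type isoforms. The members and lists were chosen with earlier results of these data known.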

Additional observations from a re-analysis of the deposited data

How the results depend on the processing

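Calls between BAL101553 and control were the least stable. Of 41 members, 7 were called, 0 with 2 libraries per group (11 at an unadjusted p under 0.05 by edgeR), 0 to 10 with single libraries left out, 9 by DESeq2 and 10 with all 9 libraries in one model. Nothing in the sources used here states that the replicate numbers pair the libraries. Correlations of the same numbers were 0.10, 0.01 and 0.11 for BAL101553 with control, and -0.01, 0.06 and 0.04 for astrocyte-labelled with BAL101553. Not every library correlated best with its own number, and correlations this weak cannot decide whether libraries were paired. With the numbers as a block, 4 members were called (3 of them among the 7) and 47 against astrocyte-labelled libraries. There the count was 48, 41 to 47 with libraries left out and 31 with at least 10 counts in every library, where fewer members are tested. The median of all genes in that comparison was 0.18, and 0.24 with RLE and 0.39 with total library size. Signs changed for values near 0. Between BAL101553 and control, leaving out single libraries gave -0.31 to 0.034 for Pcdh7 (above 0 without BAL101553 2), -0.20 to 0.35 for Pcdhb5 (below 0 without BAL101553 2 or control 1), -0.082 to 0.038 for Pcdhgc3 (above 0 without BAL101553 2 or control 2) and -0.18 to 0.20 for Pcdhgc5 (below 0 without BAL101553 1, BAL101553 3, control 1 or control 3). Pcdhgc3 was 0.068 with total library size. Pcdhgc5 was -0.069 with 2 libraries per group and -0.017 with the block. Against control in place of BAL101553, Pcdhb17 was 0.46 and Pcdhga5 -0.49, and Pcdhga5 ranged from -0.027 to 0.16 with libraries left out, below 0 without astrocyte-labelled 2.

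The effective number of beta isoforms in control, BAL101553 and astrocyte-labelled libraries was 9.34, 9.15 and 17.2 by Shannon entropy, 6.28 and 6.63 in the first 2 with at least 10 counts, and 16.9 in the last per kb. For gamma it was 5.54, 5.46 and 10.02 by Shannon, 2.97, 2.79 and 5.51 per kb, and, added after seeing the data, 9.39, 11.2 and 14.6 without Pcdhgc3. Summed CPM by total library size was 409 in control and 722 in astrocyte-labelled for non-clustered genes, 87.9 in astrocyte-labelled for beta, and 403 in control and 434 in astrocyte-labelled for gamma. The cause of these changes was not tested. Members with few counts, such as the alpha genes, are limited by depth.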
